A study of Drosophila melanogaster with 2 samples.

Results

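The ush and cbt locus lies near the left end of chromosome arm 2L of Drosophila melanogaster, and it was picked by its several intronic CG4854-eGFP peaks. The members were all peaks with a summit inside either gene or within 10 kb of them, a window of 84341 bp (dm6, 2L:466220-550560). This window held 10 of the 3106 peaks in the authors' set thresholded on the irreproducible discovery rate (IDR). That rate scores the repeatability of peak ranks over replicates. The peaks of this set were also the 3106 candidates of highest signal in the pooled list, so membership followed the pooled signal. The window also held 50 of the 30000 candidates called on the pooled reads, 42 of the 30000 candidates of replicate 2 and 62 of the 30000 of replicate 3. The label of the pooled list names peaks and background as input for IDR, so a candidate need not be a site of binding. The number, position and strength of these peaks chose the locus, so they are given as a description with no test.

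The data came from chromatin immunoprecipitation and sequencing (ChIP-seq) of whole embryos of both sexes, aged 0 to 24 hours. The embryos carried a transgene in which GFP was fused to the C terminus of the zinc finger protein CG4854, and anti-GFP antibody was used to pull it down. Both samples, biological replicates 2 and 3, came from this single transgenic line and form 1 group, so no condition was compared with another. Whole embryos of mixed stages do not show in which tissue a protein was bound, and input DNA, mock precipitations, embryos without the tag and expression were not analysed here. The signal of a peak is the authors' score, whose scale is not given in the sources used here, and the number of reads is unknown.

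The gene ush (u-shaped) encodes a zinc finger protein of the Friend of GATA family, which binds GATA transcription factors such as Pannier and changes how they act on their targets. It is known for roles in the amnioserosa, the dorsal ectoderm, the heart, blood cells and the bristle pattern of the thorax. The gene cbt (cabut) encodes a zinc finger transcription factor related to the KLF10 and KLF11 proteins of mammals, known for its part in dorsal closure of the embryo and in the response to dietary sugar. A ChIP-seq peak marks DNA that was recovered with the tagged protein. It does not show whether a nearby gene was regulated.

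The annotated ush gene (FBgn0003963, plus strand, 2L:476220-540560) spans 64341 bp and has 5 protein-coding transcripts from 4 start sites. Its 2 longest transcripts begin at 476220, and the other start sites lie at 490835, 523466 and 523736. The coding part begins at 491316 and ends at 540016, with most of its exons near the 3′ end. The gene cbt (FBgn0043364, minus strand, 2L:476446-479688) spans 3243 bp and has 3 transcripts that share 1 start site at 479688. It lies wholly inside the first intron of the 2 longest ush transcripts and is read in the opposite direction, so a peak just upstream of cbt is also a peak inside an ush intron. Other protein-coding genes in the window are CG4297 and MED15, a Mediator subunit, on the side of the first ush start site. On the other side lie lwr, which encodes the SUMO-conjugating enzyme, the signal peptide peptidase gene Spp, the ETS transcription factor gene Ets21C and nAChRbeta3, a nicotinic acetylcholine receptor subunit gene.

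The sequences under the peaks that the results turn on are shown first. The strongest peak is given as 300 bases around its pooled summit (2L:480941-481240), and the others as 101 bases, 50 on either side of the summit. All are read from the plus strand of the RefSeq copy of Release 6, which is dm6. Capitals mark matches, on either strand, to the motifs of 6 or more letters, to the 10 8-mers ranked over IDR windows outside the locus, and to GTTGGCAA. The last was picked after the windows were seen, from 13 8-mers that occur in 2 of them, and the other 12 are not marked. The capitals show the TATA box sequence in the strongest peak, GTTGGCAA or its reverse complement in the cbt promoter peak and the peak at 510635, a GATA sequence in the peaks at 510635 and 520840, and AAAATATT in the peak at 520840.
strongest peak, summit 481091: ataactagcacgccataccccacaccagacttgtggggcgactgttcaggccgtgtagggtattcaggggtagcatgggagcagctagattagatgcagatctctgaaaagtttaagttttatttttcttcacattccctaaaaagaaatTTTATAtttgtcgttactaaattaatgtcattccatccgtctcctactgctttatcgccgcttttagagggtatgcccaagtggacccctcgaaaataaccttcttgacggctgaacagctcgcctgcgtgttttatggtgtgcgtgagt
cbt promoter peak, summit 480033: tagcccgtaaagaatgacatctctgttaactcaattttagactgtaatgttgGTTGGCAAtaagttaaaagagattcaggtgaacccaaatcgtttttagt
upstream of cbt, summit 481910: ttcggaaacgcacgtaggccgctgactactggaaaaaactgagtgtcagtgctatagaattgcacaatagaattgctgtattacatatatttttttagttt
ush intron, summit 485854: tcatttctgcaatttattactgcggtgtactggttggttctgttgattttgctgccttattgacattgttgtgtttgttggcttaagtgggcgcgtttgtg
ush intron, summit 510635: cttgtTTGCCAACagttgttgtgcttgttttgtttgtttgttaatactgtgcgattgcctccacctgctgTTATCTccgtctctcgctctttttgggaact
ush intron, summit 520840: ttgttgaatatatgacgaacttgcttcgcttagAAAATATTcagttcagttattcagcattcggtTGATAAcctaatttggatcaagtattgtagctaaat

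The strongest binding at the locus lay just upstream of cbt, in 3 IDR peaks whose summits covered 1877 bp. Together they held 60.3% of the summed signal of the 10 IDR peaks. The first, at 2L:479902-480228 with its summit at 480033, lay 345 bp upstream of the cbt start site. It had a signal of 389.7 in the pooled list (rank 215 of 30000), 208.9 in replicate 2 (rank 201) and 177.3 in replicate 3 (rank 254). The pooled, replicate 2 and replicate 3 summits fell within 2 bp of each other, the closest agreement of summits among the 10 peaks.

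The second, at 2L:480854-481308, was the strongest peak of the locus and the fourth strongest of all 3106, with its summit at 481091, 1403 bp upstream of the cbt start site. Its signal was 1514.9 in the pooled list, 753.6 in replicate 2 and 761.8 in replicate 3, and it ranked 4 in all 3 lists. The replicates thus gave almost the same value, with a ratio of replicate 3 to replicate 2 of 1.01. The pooled signal was 10.4 times the median of all IDR peaks (146.0) and 3.89 times that of the next strongest peak of the locus. At 455 bp this peak was also wider than the median IDR peak of 358 bp. However, 41 of the 50 pooled candidates of the window were 404 bp wide, the weakest IDR peak among them. A width above that median is thus not particular to strong peaks. The third peak, at 2L:481853-482024, had its summit at 481910, 2222 bp upstream of cbt. Its signal was 173.3 in the pooled list (rank 1129), 79.0 in replicate 2 (rank 1510) and 96.4 in replicate 3 (rank 965).

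Inside cbt itself no IDR summit was found, and the pooled list held only 2 candidates there. The stronger had its summit at 478929, 759 bp into the gene, in a part that is 5′ UTR in 1 transcript and intron in the other 2. Its pooled signal was 72.6 (rank 4709), with 20.1 in replicate 2 (rank 14319) and 52.2 in replicate 3 (rank 3127). The replicates thus differed at this candidate, which was strong enough to stand near the limit of the IDR set in replicate 3 alone. The other, 221 bp inside the gene at 479467, had a pooled signal of 23.0 (rank 25208) and a match in replicate 3 only (17.9).

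**Figure D1:**
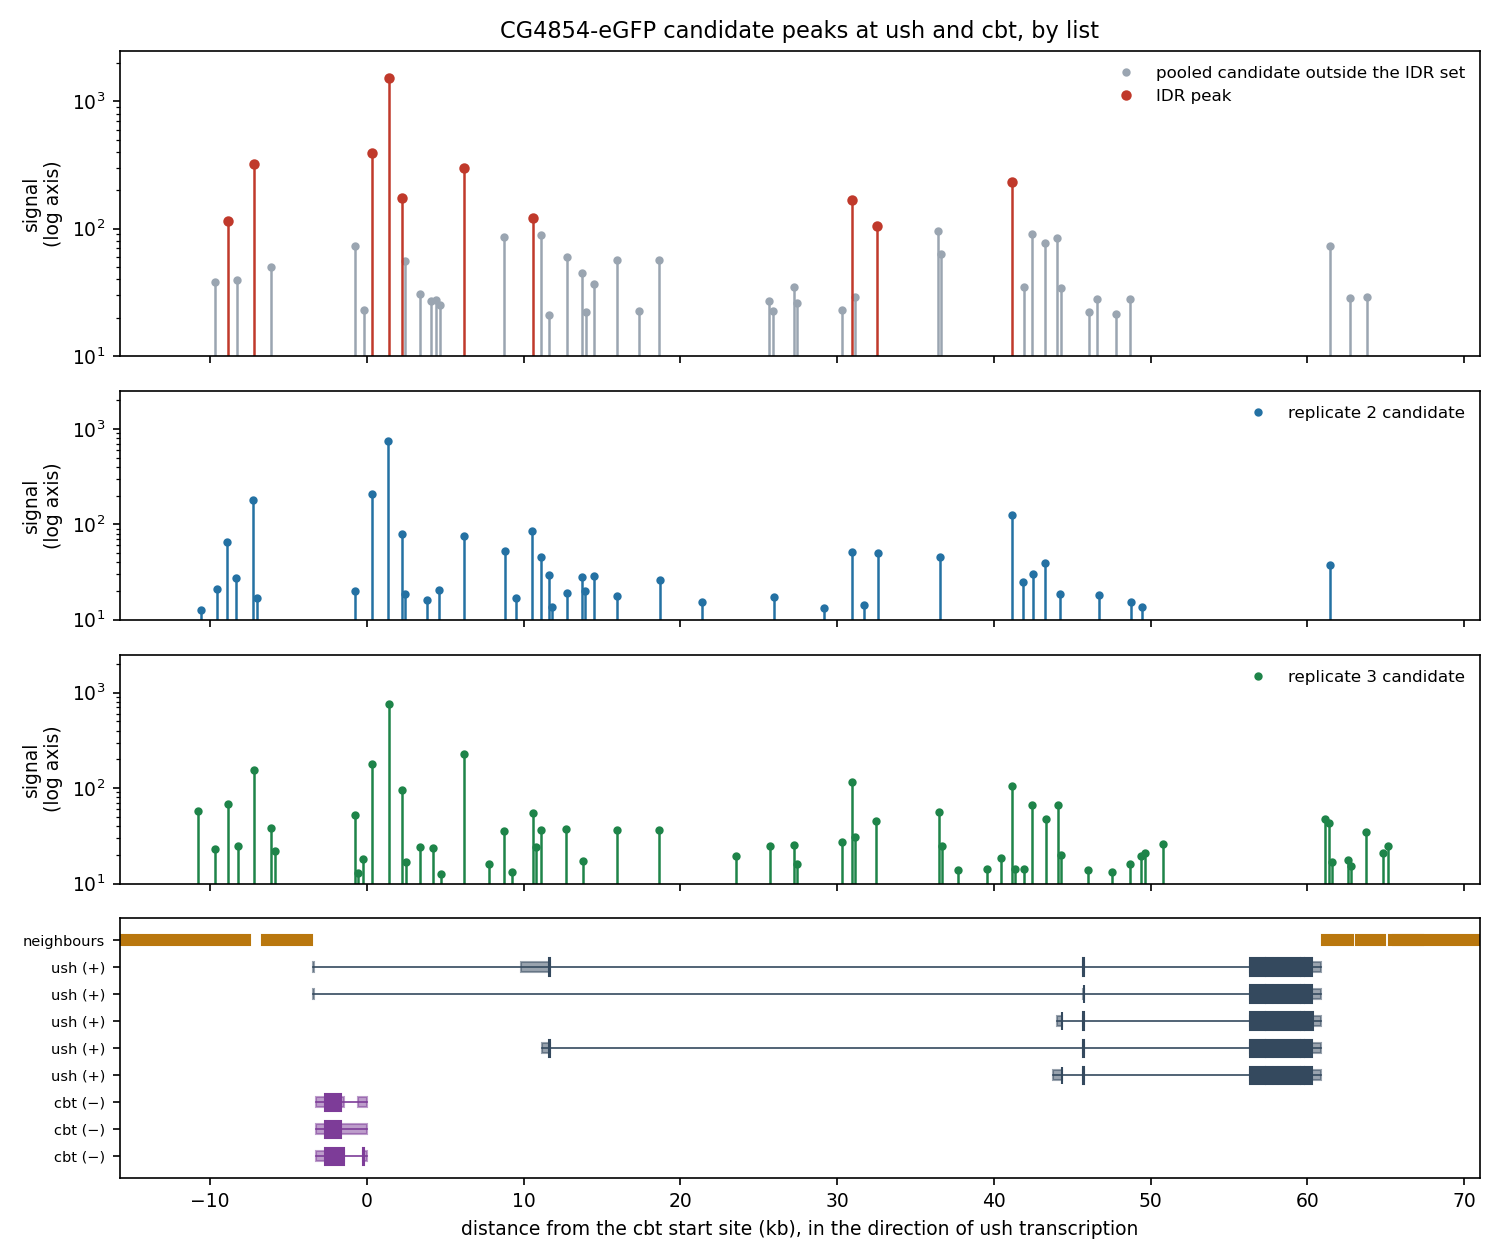
Candidate peaks across the locus. Each stem stands at a summit, with the distance from the cbt start site in kb on the x axis and the authors' signal on a log y axis, for the pooled list (IDR peaks in red), replicate 2 and replicate 3; the lowest panel shows each transcript of ush and cbt, with coding parts as tall dark boxes, and the neighbouring genes. The tallest stem in all 3 lists lies just upstream of cbt, and the 3′ part of ush, which holds most of its coding exons, has none.

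Of the 8 IDR summits inside the ush span, all 8 lay before the first exon that all its transcripts share. In 1 transcript this whole stretch is a single intron of 49060 bp, which held 38 of the pooled candidates, these 8 among them. In another transcript an exon splits it, into introns of 13185 bp with 4 IDR summits and 34033 bp with 3, and the remaining summit falls in the 5′ UTR of the exon between them. Beyond the 3 peaks next to cbt, a peak at 2L:485735-485999 had its summit at 485854, 4981 bp before the ush start site at 490835. Its signal was 302.3 in the pooled list (rank 370), 75.1 in replicate 2 (rank 1643) and 228.4 in replicate 3 (rank 155). Replicate 3 was 3.04 times replicate 2 there, the widest gap between replicates among the 10 peaks, although the summits lay within 3 bp.

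The next peak, at 2L:490174-490332, lay 582 bp before the start site at 490835, in an exon that is 5′ UTR in 1 of the transcripts that begin at 476220. Its signal was 121.3 in the pooled list (rank 2105), 85.8 in replicate 2 (rank 1287) and 55.0 in replicate 3 (rank 2810), so here replicate 2 was the higher. After it came a stretch of 20382 bp with no IDR summit, which still held 14 pooled candidates with signals from 20.8 to 88.8. At its far end a peak at 2L:510520-510690, with its summit at 510635, had a signal of 168.9 in the pooled list (rank 1176), 51.1 in replicate 2 (rank 3012) and 114.5 in replicate 3 (rank 681). Replicate 3 was again above replicate 2, by 2.24 times.

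The last pair of ush peaks lay before the start sites at 523466 and 523736. The peak at 2L:512011-512414 was the weakest of the 10, with a signal of 104.2 in the pooled list (rank 2708), 50.1 in replicate 2 (rank 3097) and 45.2 in replicate 3 (rank 3965). The replicate ranks were thus near or past the size of the IDR set, and its summits spread over 81 bp, the widest of the 10. The peak at 2L:520719-520955, with its summit at 520840, lay 2626 bp before the start site at 523466. Its signal was 231.0 in the pooled list (rank 656), 124.3 in replicate 2 (rank 642) and 105.0 in replicate 3 (rank 814), close in both replicates.

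None of the 4 ush start sites had an IDR summit within 500 bp, while 3 of the 4 had a weaker candidate there. At the start site at 490835 a candidate lay 37 bp away, with a signal of 88.8 in the pooled list (rank 3457), 45.0 in replicate 2 (rank 3662) and 36.8 in replicate 3 (rank 5679). At the start site at 523736 a candidate lay 10 bp away, with a pooled signal of 84.3 (rank 3733); it is also 280 bp from the start site at 523466. Replicate 3 held it with a signal of 66.9 (rank 1928), and the nearest candidate of replicate 2 lay 192 bp from the pooled summit. At the first start site, 476220, the nearest pooled candidate lay 2637 bp away, and the nearest of replicates 2 and 3 lay 2680 bp and 2430 bp away.

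The coding exons of ush held no summit of any list. Over 3679 bp in 9 blocks, the pooled, replicate 2 and replicate 3 lists held 0 summits, although called intervals with summits outside reached into 2 short blocks near the start sites at 490835 and 523736. These were 2 intervals of the pooled list, 3 of replicate 2 and 1 of replicate 3, and the pooled summit at 491314 lay just before the coding block that begins at 491316. The longest stretch of the window between pooled summits, 12755 bp from 528360 to 541115, covers all coding exons from 536023 on. In replicate 2 the longest stretch was 11979 bp and in replicate 3 it was 10339 bp, over the same exons. A candidate list holds only the 30000 strongest entries, so weaker binding there would not be listed.

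In the flanks, 2 IDR peaks lay at CG4297 and none on the side of lwr. The peak at 2L:472320-472603 had its summit 258 bp upstream of a CG4297 start site and 555 bp from that of MED15, which is read the other way. Its signal was 324.5 in the pooled list (rank 311), 178.7 in replicate 2 (rank 293) and 152.8 in replicate 3 (rank 345). The peak at 2L:470603-471006 lay in a CG4297 intron, with a signal of 114.9 in the pooled list (rank 2302), 65.2 in replicate 2 (rank 2074) and 68.1 in replicate 3 (rank 1857). Both were close between the replicates. Past the end of ush the strongest pooled candidate, at 541115 in the 3′ UTR of lwr, had a signal of 73.0 (rank 4672), with 37.5 in replicate 2 (rank 4928) and 42.6 in replicate 3 (rank 4445). No candidate of any list lay within 500 bp of the Ets21C start site inside the window.

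All 10 IDR summits had a candidate within 100 bp in both replicates, and 9 of the 10 ranked 3106 or better in both. Of all 3106 IDR summits, 94.5% had a candidate within that distance in both replicates and 63.6% ranked 3106 or better in both. Both replicate lists were called against 1 control file, and the pooled list holds the reads of both replicates, so the lists compared here are not independent. The absolute log2 ratio of the replicate signals ran from 0.02 to 1.60 over the 10 peaks, with a median of 0.24, against a median of 0.36 over all IDR peaks matched in both. The authors derived the IDR set with a threshold on repeatable ranks, but its members were exactly the 3106 candidates of highest pooled signal. Of the 10 peaks, 7 had a signal above the median of the set. The locus and the whole set were not matched for strength. Replicate 3 was higher at 5 of the 10 and replicate 2 at the other 5. The peaks at 485854 and 510635, both higher in replicate 3, had absolute ratios at least as large as those of 97.8% and 93.1% of the matched IDR peaks, themselves included. With 1 value per replicate there is no error estimate for a single peak, so neither gap can be set against a spread within replicates.

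**Figure D2:**
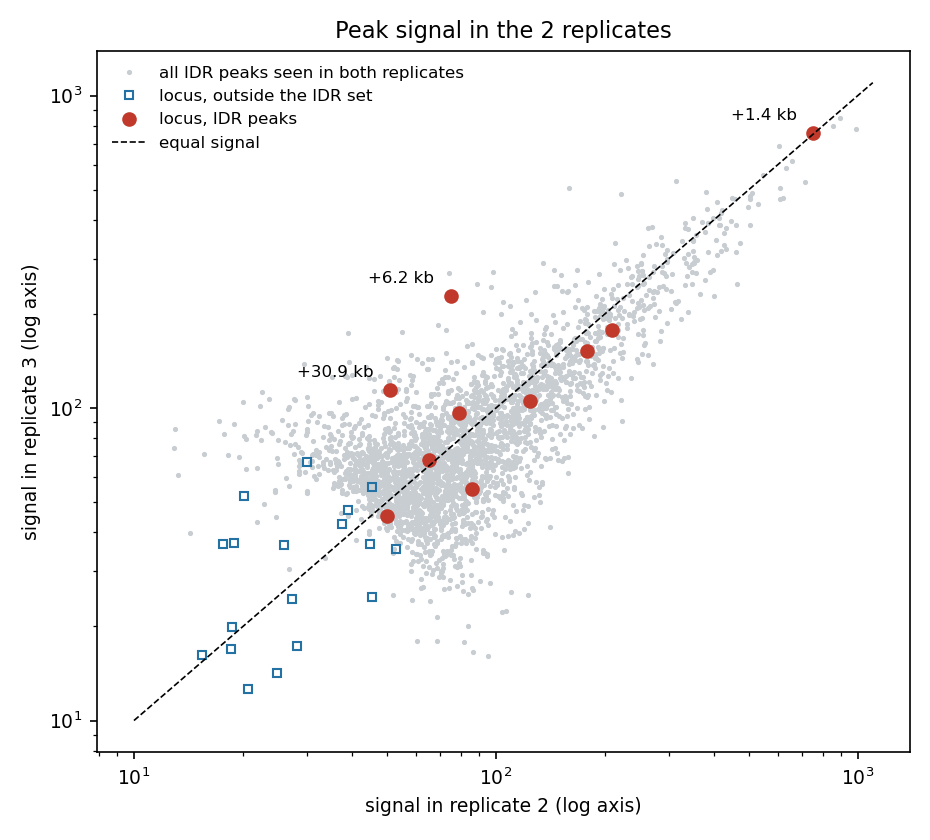
Signal in replicate 2 (x axis) and replicate 3 (y axis), both on log axes, at all IDR peaks with a candidate within 100 bp in both replicates (grey), at the 10 IDR peaks of the locus (red) and at the 18 other pooled candidates of the locus with a match in both (blue squares); the dashed line marks equal signal. The strongest peak lies on the line with 753.6 and 761.8, while the peaks at 485854 and 510635 lie above it with ratios of 3.04 and 2.24.

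The pooled signal was close to the sum of the replicate signals at most of the 10 peaks. The ratio of pooled signal to that sum ran from 0.861 to 1.09, and over all matched IDR peaks its median was 0.999 with quartiles of 0.982 and 1.02. The lowest ratios, 0.862 at 470805 and 0.861 at 490253, were at peaks whose replicate summits lay 73 bp and 57 bp apart. The highest, 1.09 at 512213, was at the peak with the widest spread of summits, so wide spreads stood beside ratios both below and above 1.

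The pooled candidates put 10 of 50 into the IDR set, against 10.4% of all 30000 pooled candidates; since the locus was chosen for its peaks, nothing is read from this. The 40 others had a median signal of 34.4 and ran from 20.8 to 95.2. Their deposited −log10 q-values ran from 3.547, the most significant in the list, down to 0.393 at 491314. By its label the pooled list includes background, so the weak entries among the 40 may be background. Of these 40, 29 lay in introns outside promoter windows, 7 within 500 bp of a start site, 2 in coding exons of MED15 and Spp, 1 in a 5′ UTR and 1 in a 3′ UTR. Among them 18 had a candidate within 100 bp in both replicates, 17 in 1 replicate and 5 in neither. Of all 26894 pooled candidates outside the IDR set, 29.0% had a match in both replicates. The window held more candidates per kb than 2L as a whole, and no allowance was made for this. In the pooled list of the window, 9 candidates overlapped the one before them, so neighbouring candidates do not all stand for separate sites.

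The candidate just outside the IDR set lay in an ush intron. At 2L:515943-516346, with its summit at 516145, it ranked 3107 in the pooled list, where the IDR set ends at rank 3106. Its signal was 95.18, against 95.19 for the last peak inside the set, which lies between genes elsewhere on 2L with stc as the gene of the nearest start site. Replicate 2 held it with 45.6 (rank 3597, summit 100 bp away) and replicate 3 with 55.8 (rank 2730). The same replicate 2 entry is also the nearest one to the pooled candidate at 516344. In the pooled list this candidate and 7 others of the locus outside the IDR set had the same deposited q-value as the IDR peaks, the most significant value in that list.

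**Figure D3:**
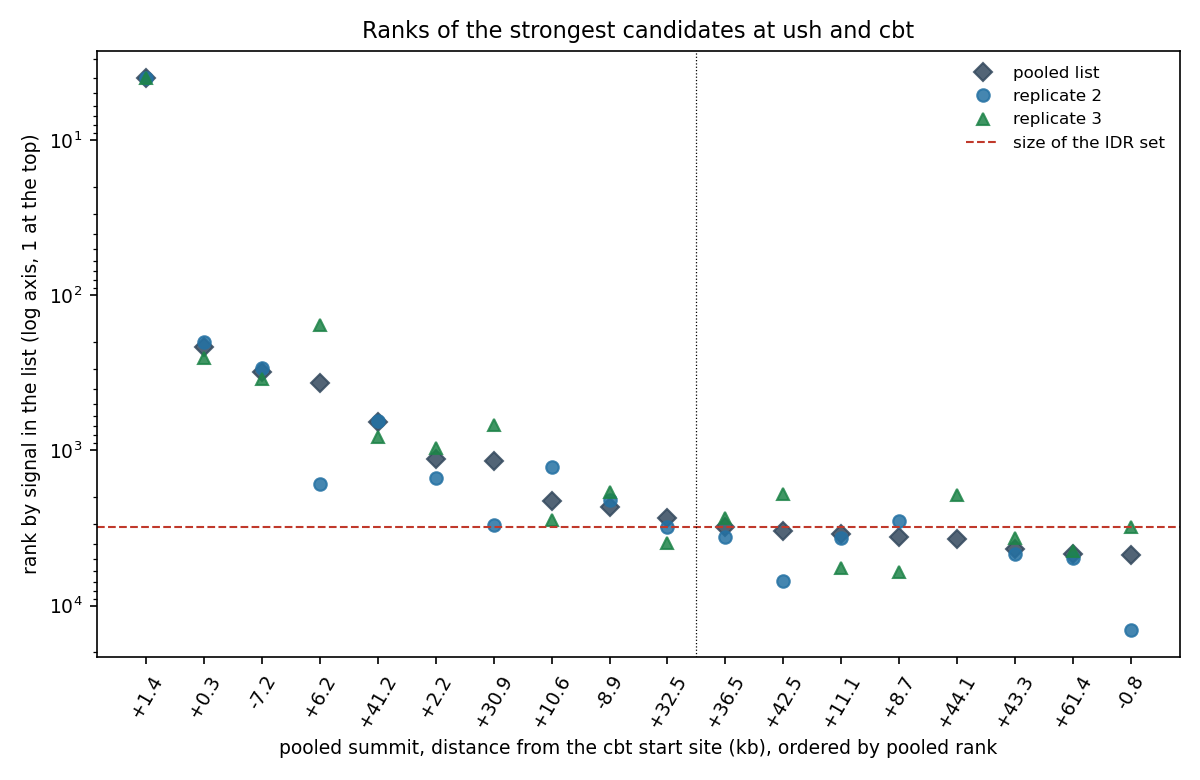
Rank by signal (log axis, rank 1 at the top) in the pooled list, replicate 2 and replicate 3 for the 18 pooled candidates of the locus with the most significant deposited q-value, ordered by pooled rank and labelled by distance from the cbt start site in kb; the dashed line marks rank 3106, and the 10 IDR peaks stand left of the dotted line. A point is missing where a replicate had no candidate within 100 bp. The replicates lie close together at the 3 strongest peaks and apart at the next one, the peak at 485854 with ranks of 1643 and 155.

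Strong entries of single replicates added few further positions. Replicate 2 had 11 candidates with rank 3106 or better in the window, 10 of them at IDR summits. The eleventh, at 488490, had a signal of 52.8 (rank 2866) and lay 70 bp from a pooled candidate of 85.8 (rank 3630). Replicate 3 had 13 such candidates, 9 of them at IDR summits and 1, at 468900 in CG4297, with no pooled candidate within 100 bp. That entry had a signal of 57.1 (rank 2614), and the nearest replicate 2 candidate lay 193 bp away. The remaining 3 of replicate 3 lay at the candidate just outside the IDR set, at 522139 (67.2, rank 1909; 30.0 and rank 6987 in replicate 2) and at the start site at 523736. Over all candidates, 26 of the 42 of replicate 2 and 26 of the 62 of replicate 3 had a match in the other replicate. These were 61.9% and 41.9%, against 35.6% of each full list. The window was chosen for its peaks and held more candidates per kb than 2L as a whole. No allowance was made for this.

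Inside the ush span the count of 8 IDR summits was shared or exceeded by 9 of 13945 protein-coding genes (0.0645%), ush among them. This ranking uses the values that chose the locus and supports nothing by itself. CG1677 on X had 12 and CHES-1-like, a forkhead transcription factor gene, had 11. With 8 each stood Raf, a kinase of the MAP kinase cascade, shn, whose zinc finger protein acts in Dpp signalling, the adhesion gene kirre, sbb, CG14434 and RapGAP1. The tenth was Tlk, a kinase gene, with 7. By the number of IDR summits these genes are the most like ush. By summed signal ush came first with 3005.6, followed by CG1677 with 2232.5 and CHES-1-like with 2187.5. The peak at 481091 alone, 1403 bp upstream of cbt, gave 1514.9 of the ush sum. Several of these genes are long, and the number of summits per kb of gene was 0.124 for ush, 0.407 for CHES-1-like and 0.0203 for kirre.

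Among 72 other genes whose span was within 10% of that of ush, the number of IDR summits ran from 0 to 8 with a median of 0. Of these, 38 had none and 1, shn, had as many as ush. The number of pooled candidates in them ran from 0 to 56 with a median of 14.5, against 42 in ush. The IDR summits of ush were 19.0% of its pooled candidates, and those of shn 18.6%.

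**Figure D4:**
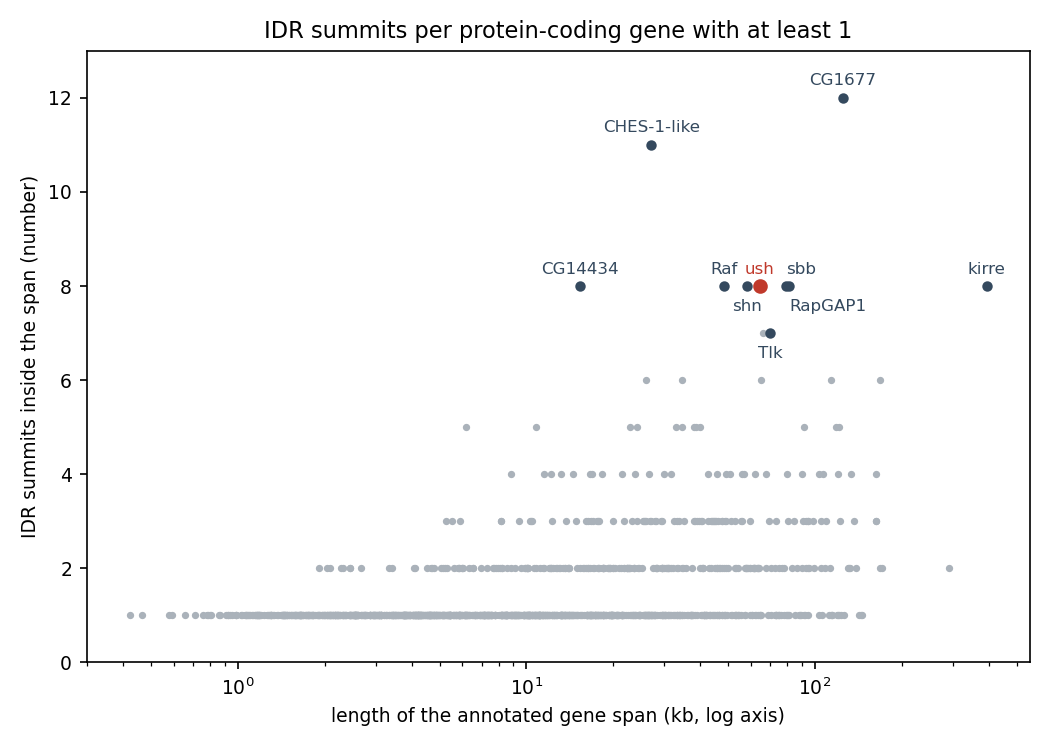
Number of IDR summits inside the annotated span (y axis) against the length of the span in kb (log x axis) for the 1255 protein-coding genes with at least 1; the 10 genes with the most are named, and ush is red. ush stands at 8 summits and 64.3 kb, level with shn, Raf, kirre, sbb, CG14434 and RapGAP1.

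Most IDR summits of the locus lay in introns. Of the 10, 7 were intronic, 2 lay within 500 bp of a start site (cbt and CG4297) and 1 in a 5′ UTR, against 31.1% of all 3106 in introns. Since intronic peaks were the reason for the choice, this share is no result about the locus.

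The sequence matches at the locus were few. Within 50 bp of the summits, the DRE (TATCGATA), the BEAF-32 core (CGATA), the Zelda site (CAGGTA), the M1BP site (GGTCACACT), the E-boxes CACGTG and CATATG and the KLF-type sequences CCGCCC and CACCC were in 0 of 10 windows. The BEAF-32 core occurred in 18.1% of all IDR windows and the DRE in 2.64%. The GATA sequences AGATAA and TGATAA were each in 1 of 10 windows, at 510635 and 520840, against 7.21% and 8.44% of all IDR windows. The TATA box sequence TATAAA was in 2 of 10, at 481091 and 512213, against 18.8%. GAGAG was in 1 of 10, at 510635 (10.4% of all), and CAGCTG in 1 of 10, at 470805 (4.89% of all). Both strands were searched, and the DRE contains the BEAF-32 core. Within 100 bp of the summits CGATA was in 2 of 10 windows, at 481091 and 490253, CACGTG in 2, at 480033 and 481910, CACCC in 1 and AGATAA in 2. GAGAG was in 3 within 100 bp and in 0 within 25 bp. No difference from all IDR windows was tested.

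Of the 10 8-mers whose share in IDR windows outside the locus most exceeded that in other candidates, any was present in 2 of the 10 windows, against 27.1% of the IDR windows elsewhere and 16.1% of the other candidates. Within 100 bp of the summit any was present in 5 of the 10. Those within 50 bp were TTAAAAAA at 512213 and AAAATATT at 520840, and both are runs of A and T. The 8-mers ATCGATAG, which overlaps the DRE (3.10% against 1.27%), and CAACACTG (2.46% against 0.652%) were in none of the 10 windows and nowhere inside the 10 peaks. The window of the strongest peak held none of the 10 8-mers. Its GC content was 28.7% over 101 bases, the lowest of the 9 windows outside UTRs, against a mean of 35.9% over IDR windows elsewhere. Over the 300 bases shown for this peak the GC content was 44.7%, so the low value holds for the 101 bases only. In the cbt promoter window of 101 bases it was 34.7%.

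Genes of the pathways in which ush and cbt act were described from 5 lists by their share with an IDR summit within 500 bp of a start site, beside 15.8% of all 13945 protein-coding genes. Counting also summits anywhere in the gene, the share over all genes was 19.4%. Longer genes have more room for the second kind. The list named for GATA factors and partners of Ush also held ap, gcm, gcm2 and kn. In this list 1 of 17 had a promoter summit, MBD-like (161.2), a component of the NuRD repressor complex. With gene bodies it was 4 of 17, which added GATAd, CtBP and Mi-2, the nucleosome remodeller of NuRD. The GATA genes pnr and srp had none. Of the genes of amnioserosa and germ band retraction, 2 of 10 had a promoter summit, mys, a beta integrin (153.9), and the insulin receptor gene InR (105.8), and 3 of 10 with gene bodies, the third being ush.

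Of the proneural and dorsal patterning targets, 2 of 11 had a promoter summit, tin, a heart and mesoderm homeobox gene (154.6), and Dad, an inhibitor of Dpp signalling (104.2), and 4 of 11 with gene bodies, which added dpp and sog. Of the JNK and dorsal closure genes, 6 of 21 had a promoter summit. The strongest were shn (346.8), the septin gene pnut (138.1), the integrin gene scb (125.4) and puc, the phosphatase that restrains JNK (110.1). With gene bodies the count was 12 of 21, among them msn, a kinase upstream of JNK, with 4 IDR summits, and kay, the fly Fos gene, with 2. Of the KLF, other zinc finger and sugar-sensing genes, 3 of 13 had a promoter summit. These were cbt (389.7), the zinc finger gene bowl (260.7) and bigmax, the partner of Mondo in sugar sensing (191.1). With gene bodies it was 5 of 13, which added luna and dar1. In these counts ush entered by summits inside the gene with none within 500 bp of its start sites, and cbt by its promoter summit with none inside the gene. The peaks of ush and cbt chose the locus, so their entries say nothing about the lists. These lists are short, were drawn up with results of these data known, and got no test.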

How the data were processed

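Whole-embryo ChIP-seq peak lists of 2 biological replicates were analysed on dm6. Per the labels and the text deposited with the samples, the authors called 30000 candidates per replicate and on pooled alignments, each against a control, and derived the IDR set from these lists. The deposited signal is a score per peak in the caller's scale. Deposited q-values are on the −log10 scale and constant in the IDR set. Aligner, caller, IDR threshold and read depth were not given in the sources used here, so no interval was computed. The 3106 IDR peaks were the 3106 highest-signal pooled candidates. Summits came from the deposited offsets, and coordinates count from 1. Ranks are by signal within each list. Lists of the older build dm3 were not used.

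Python 3.11.15 with numpy 2.4.6 and pandas 2.3.3 placed summits on Ensembl release 115 genes (BDGP6 version 54, arms 2L, 2R, 3L, 3R, 4 and X). A summit was assigned to the first that held of promoter (within 500 bp of a protein-coding start site), 5′ UTR, coding exon, 3′ UTR, intron and intergenic. Summits within 100 bp counted as shared between lists. Sequence came from the RefSeq copy of the same assembly, and every peak ends within its chromosome. The 8-mers were merged with their reverse complements and ranked by the difference of their shares between IDR windows and other pooled candidates, both outside the locus. The counting and 8-mer steps were tested on simulated data. Replicates were treated as 1 group, peaks are not replicates, and no test was run.

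The named genes were ush, cbt, the protein-coding genes of the window, the 10 with the most IDR summits, genes of similar span by count, and up to 4 members per list by signal at promoters; other list members were named after their values were seen. Symbols of the 5 lists all matched, through older names where needed; CG12029 is an older name of dar1 and counts once. The members, lists and motifs were chosen with earlier results of these data known. Alternatives changed the flank, the peak set, the shared distance, the promoter and sequence windows, and left out each replicate.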

Additional observations from a re-analysis of the deposited data

How the results depend on the processing

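Counts within 1.5 times the reported one were taken as unmoved. The 10 IDR peaks became 8 with no flank, 9 with 5 kb, 7 among the 1553 strongest and 10 by overlap. With the 3106 strongest entries of a single replicate in place of the IDR set, an alternative added for this count after seeing the data, they ranged from 11 to 13. The agreement count of 9 was 8 with summits within 50 bp and 9 within 200 bp. Peaks ranking 3106 or better in a single replicate numbered 9 to 10, which cannot fall below 9 by construction and measures no agreement. The place of ush by IDR summits per gene was 3, tied with the other genes that had 8, and ranged from 2 to 3 without a replicate. It was 6 for intronic summits only and 624 per kb of gene, where short genes with 1 summit stand higher by construction. The list members with a promoter summit, 14 over the 5 lists, ranged from 14 to 18 without a replicate and were 28 with gene bodies. Windows with a named 8-mer rose from 2 to 5 within 100 bp. Promoter summits were 0 with a 200 bp window and 4 with 1000 bp, against 2. Of the 41 alternatives for single lists and motifs, 29 left the count unmoved. The unknown read depth limits what the absence of a candidate shows. No paired analysis was possible because the 2 samples form 1 group.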

Other observations

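The 10 windows of 101 bases at the IDR summits held 921 distinct 8-mers, of which 13 occurred in 2 windows and 0 in 3 or more. One of them, GTTGGCAA or its reverse complement, was shared by the cbt promoter peak at 480033 and the ush intron peak at 510635. It occurred in 1.84% of the 3096 IDR windows outside the locus and in 0.644% of the other candidates, the largest ratio of these shares, 2.86, among the 13. It was noticed after the windows were seen, and whether CG4854 recognises it was not tested.

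The density of IDR summits in the window was 0.119 per kb, against 0.0253 per kb over the whole of 2L, a ratio of 4.69. For pooled candidates it was 0.593 against 0.243 per kb, for replicate 2 it was 0.498 against 0.254 and for replicate 3 it was 0.735 against 0.243. The window was chosen for its peaks, so these ratios are descriptions.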
